A study of Mus musculus with 12 samples.

Results

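Gask1b, Sgk1, Ank3 and Car7 were read in fetal mouse kidneys grown in culture, either wildtype or with beta-catenin activated. They are 4 of 12393 measured genes, read by 6 of the 20380 probe sets that the platform annotation assigns to a single gene. They were picked because activated and wildtype kidneys differed in them in a linear model that held the sample title's run of numbers as a term, and for no shared function. Their difference on activation is therefore described below without a test, and tests are given only for comparisons that this choice did not use. For the members those tests share the residual spread with the choice, which favoured a small one, so their p-values may be too low. Ank3 had 3 probe sets, and Gask1b, Sgk1 and Car7 had 1 each.

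The 12 samples, all of the C57BL/6 strain, comprised 6 labelled wild type and 6 labelled beta-catenin activated, the latter described as kidneys with tumors. According to the labels' protocols the pregnant mice received tamoxifen at 2 mg per 40 g of body weight at 10.5 dpc (days post coitum), and kidneys were dissected at 10.5 dpc and cultured for 3 to 4 days. The serum-free medium held insulin and transferrin, each at 5 µg/mL, and selenium at 5 ng/mL. This protocol is given for both genotypes, so wildtype kidneys are listed as tamoxifen-exposed too. The allele that activates beta-catenin, the driver of the recombination and the number of kidneys or litters per sample are not given in the sources used here. P-values thus measure the spread between these samples, which may be partly technical. Sample titles carry numbers in a lower and a higher run, with 3 wildtype and 3 activated samples in each, and the labels do not say what separates the runs.

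In canonical Wnt signalling beta-catenin enters the nucleus and acts there with Tcf/Lef factors on target genes. In the fetal kidney this signal takes part in induction of nephrons and in growth of the ureteric bud. Gask1b encodes a Golgi-associated protein of a family of secretory pathway kinases and kinase-like proteins. Sgk1 encodes a serine/threonine kinase that is induced by serum and by corticosteroids and that raises sodium uptake through the epithelial sodium channel. Ank3 encodes ankyrin-G, an adaptor that ties membrane proteins to the spectrin skeleton, among other places at the lateral membrane of epithelial cells. Car7 encodes a cytosolic carbonic anhydrase, one of the enzymes that interconvert carbon dioxide and bicarbonate.

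The arrays held the nephron progenitor gene Six2 at 10.09 ± 0.21, Wt1 at 9.55 ± 0.13 and the stromal gene Foxd1 at 10.11 ± 0.37 in wildtype (SD, n = 6 arrays), all as log2(intensity + 16), the scale of every level below. The highest of 27 probe sets for bacterial transcripts, which mouse RNA does not contain, read 5.45 and served as the limit of background. Ret and Wnt9b, of the ureteric bud list, never rose above it. After trimming 2% from each end, the mean deposited intensity was 250.099 to 250.126 in every array. Ctnnb1, the gene of beta-catenin, read 12.97 ± 0.10 in wildtype and 12.92 ± 0.06 in activated kidneys, which checks nothing about the labels, since activation of the protein need not change its transcript. The array labelled activated 2 stood apart in the log2 ratio of 5' to 3' control signal, a measure of RNA or labelling quality, at -0.28 where the others read -2.44 to -1.14. The mean of 3 Y-linked genes was low in wildtype 2, wildtype 5 and activated 6 (4.24 to 4.48, beside 7.38 to 8.65 in the other 9 arrays), that is in 1 of 3 arrays of each group except lower-run activated kidneys, which had 0. With that mean as a covariate, the differences on activation were 1.04 for Gask1b, 0.71 for Sgk1, -0.69 for Ank3 and 0.97 for Car7.

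The nephron progenitor list (10 of 10 measured, none of them always at background) moved with activation beside the members. It averaged 7.95 ± 0.07 in wildtype and 6.74 ± 0.23 in activated kidneys of the lower run, and 7.77 ± 0.11 and 7.52 ± 0.08 in the higher run (SD, n = 3 arrays each). Its summed intensity was 3240 to 3628 and 1218 to 1570 in the lower run, and 3151 to 3597 and 2505 to 3120 in the higher run. Fitted over both runs, 0 of its genes passed, 0 were positive and the median was -0.72. In the lower run 0 of the 10 were positive and 6 were called lower, where 1.52% of all genes passed in either direction. Six2 read 8.94 ± 1.06 in activated kidneys (SD, n = 6) and fell by 2.01 in the lower run (SE 0.21, limma, adjusted p = 0.000112), and Foxd1 fell by 0.93 there (SE 0.10, adjusted p = 0.000168). The stroma list, with 12 of 12 genes measured, had 0 that passed over both runs, 5 positive and a median of -0.04. In the lower run 4 of its genes were called lower and 2 were positive, with a median of -0.43. In the higher run 0 passed and 8 were positive, with a median of 0.10. The endothelium list (10 of 10 measured) had 0 that passed over both runs, 9 positive and a median of 0.33. It averaged 6.47 ± 0.31 in wildtype and 6.80 ± 0.20 in activated kidneys (SD, n = 6). The neuron and glia list (8 of 10 measured, with Elavl3 and Th never above background) had 4 positive over both runs. In the lower run it averaged 6.03 to 6.42 in wildtype and 5.55 to 5.68 in activated kidneys. In the higher run these were 5.75 to 5.98 and 5.76 to 5.90. The part of these changes in the members' differences was not tested. In bulk tissue fewer cells of a type and less RNA per cell cannot be told apart.

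In Gask1b every activated kidney read above every wildtype kidney, by a similar margin in both runs. In the lower run the wildtype arrays read 7.41, 7.21 and 7.25 and the activated arrays 8.54, 8.10 and 8.65. In the higher run they read 7.67, 7.49 and 7.53 and 8.25, 8.82 and 8.54. The lowest activated value, 8.10, came from activated 2 and still lay above the highest wildtype value, 7.67. As deposited, the intensities ran from 133.067 to 188.979 in wildtype and from 274.968 to 433.361 in activated kidneys. The difference with the run as a term was 1.06 (SE 0.13), a fold of 2.08, and Gask1b had the smallest p of all genes in that model. It was 1.14 (SE 0.19) in the lower and 0.97 (SE 0.19) in the higher run.

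The promoter window of Gask1b in RefSeq (GRCm38.p6, chr3:79885680-79885979, plus strand, from 250 bases before to 50 after the gene's start) is shown because Gask1b led the model. Windows were searched on both strands for the core of the Tcf/Lef motif, CTTTGA or its reverse TCAAAG, with matches in capitals. The Gask1b window held none, which says only that these letters are not in this window.
Gask1b: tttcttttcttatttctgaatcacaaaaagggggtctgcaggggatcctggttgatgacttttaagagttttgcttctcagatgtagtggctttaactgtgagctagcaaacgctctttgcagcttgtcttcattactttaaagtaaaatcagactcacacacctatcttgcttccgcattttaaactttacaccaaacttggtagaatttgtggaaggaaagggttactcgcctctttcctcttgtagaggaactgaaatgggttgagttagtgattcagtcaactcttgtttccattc

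**Figure D1:**
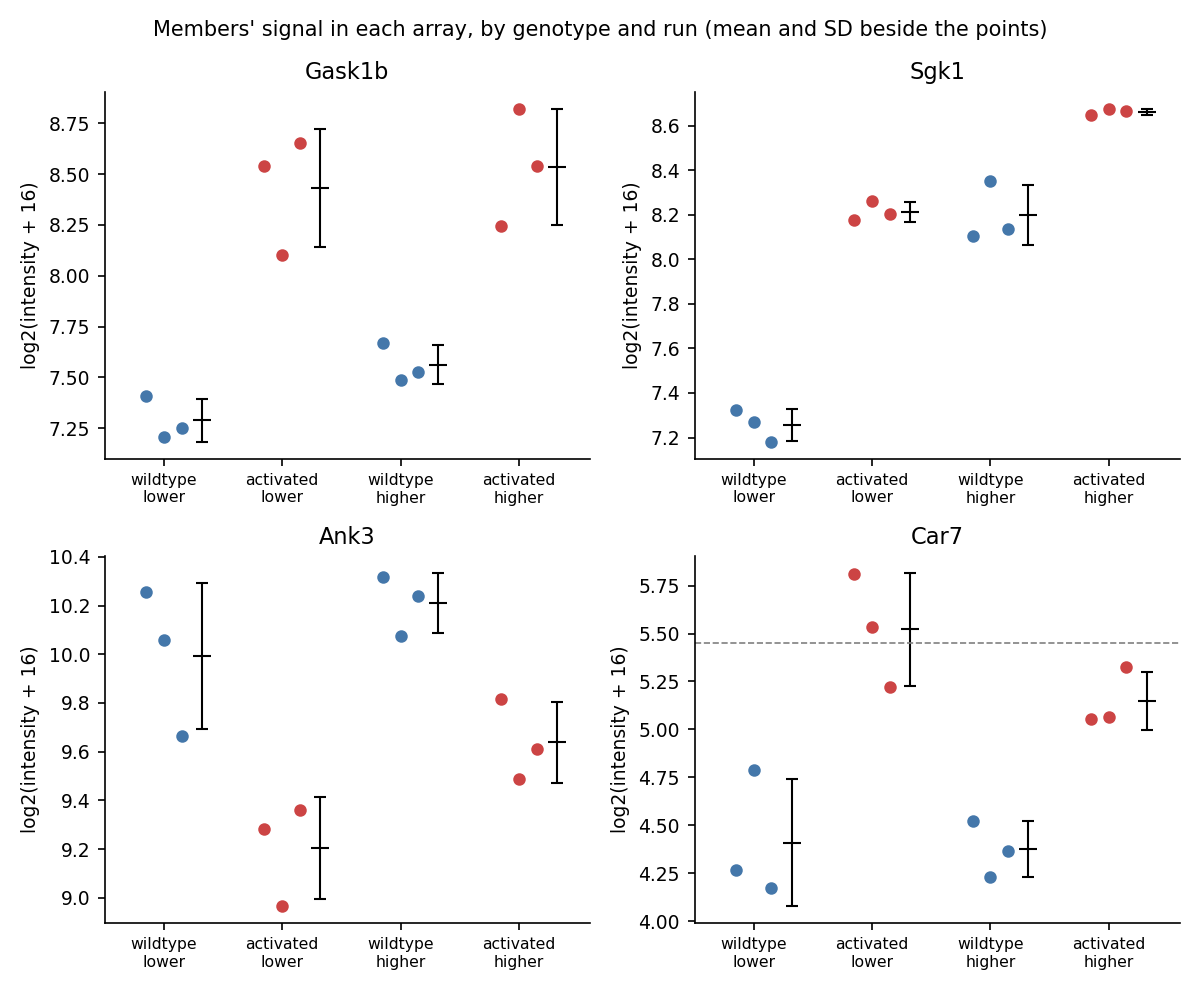
Signal of each member in every array, on the log2(intensity + 16) scale, by genotype and run, with 3 arrays a group (blue wildtype, red activated, bars mean and SD). The 6 activated arrays of Gask1b lie at 8.10 or above and the 6 wildtype arrays at 7.67 or below, while Sgk1 of wildtype higher-run arrays lies at the level of activated lower-run arrays; the dashed line for Car7 is the highest bacterial control signal, 5.45.

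Sgk1 was higher in activated kidneys of both runs, but its level also differed between the runs. Lower-run wildtype arrays read 7.32, 7.27 and 7.18, and lower-run activated arrays 8.17, 8.26 and 8.20. Higher-run wildtype arrays read 8.10, 8.35 and 8.14, and higher-run activated arrays 8.65, 8.68 and 8.66. In order of level, wildtype of the lower run came lowest and activated of the higher run highest, and neither overlapped another group. Activated of the lower run (8.21 ± 0.04, SD, n = 3) and wildtype of the higher run (8.20 ± 0.13, SD, n = 3) lay between them and overlapped. Wildtype kidneys of the higher run thus carried as much Sgk1 signal as activated kidneys of the lower run.

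The difference of Sgk1 on activation was 0.71 (SE 0.11) with the run as a term, a fold of 1.64. Without that term the estimate was the same and its SE was 0.21. By run it was 0.96 (SE 0.14) in the lower and 0.46 (SE 0.14) in the higher run.

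The difference of Sgk1 between the runs was not itself used to choose it and was tested. The test shares its residual spread with the choice, which favoured a small one, so its p-values may be too low. In wildtype, Sgk1 was 0.94 higher in the higher run (SE 0.14, limma, adjusted p = 0.000896), a fold of 1.92, with all 3 higher-run arrays above all 3 lower-run arrays. In the same comparison 5.16% of genes passed in either direction, 3.53% as higher and 1.64% as lower, and 25.3% of genes had groups that did not overlap. In activated kidneys the difference was 0.45 (SE 0.14, limma, adjusted p = 0.0825) and did not pass, where 4.91% of genes did, although its arrays of the runs did not overlap, as in 20.1% of genes. On the values as deposited it passed there (0.50, adjusted p = 0.0468), as it did with the 5' to 3' ratio as a covariate (0.47, adjusted p = 0.0331). Over both genotypes it was 0.70 (SE 0.11, limma, adjusted p = 0.000788), where 11.1% of genes passed. The wildtype difference stayed between 0.86 and 0.99 when single arrays were left out, and passed in 22 of 22 alternatives.

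The effect of activation on Sgk1 was 0.49 smaller in the higher than in the lower run (SE 0.19, limma, adjusted p = 0.659, unadjusted p = 0.0225). This did not pass, while 0.331% of genes did. A choice of genes with a small residual spread also favours genes whose effect is alike in both runs.

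Genes of 2 lists around Sgk1 were read in the same comparison of wildtype kidneys between the runs. Of all genes 3.53% passed there as higher and 1.64% as lower. Of 15 measured corticosteroid receptors and corticosteroid-induced genes, 4 were called higher in the higher run and 1 lower. Of the 15, 8 were positive, with a median of 0.25 beside -0.02 over all genes. Those called higher were Cebpd (1.67), Dusp1 (0.92), Ddit4 (0.73) and Errfi1 (0.72). The one called lower was Hsd11b2 (-0.70), which inactivates corticosteroids. The other 10 did not pass, among them Klf9 (0.54), Pck1 (0.45) and Zbtb16 (0.25) above 0 and Tsc22d3 (-0.23), Fkbp5 (-0.33) and Per1 (-0.15) below it. Of 20 relatives, activators and sodium channel genes, 3 were called higher and 0 lower, with 17 positive and a median of 0.27. Those called higher were Ndrg1 (1.94), whose protein is a substrate of the kinase, Atp1b1 (1.24), a sodium pump subunit, and Scnn1g (1.24), a subunit of the epithelial sodium channel. The genes named here for the difference between the runs were chosen after their values were seen.

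Markers of other cells also moved with the run. The macrophage list (10 of 10 measured) averaged 6.22 to 6.81 in lower-run and 7.08 to 7.52 in higher-run wildtype arrays, and 6.27 to 6.73 and 7.40 to 7.48 in activated arrays. Its summed intensity was 891 to 1478 and 1776 to 2375 in wildtype. All of its 10 genes were positive there and 3 were called higher, where 3.53% of all genes were. The erythroid list (7 of 8 measured, with Hba-a1 and Epb42 never above background) averaged 6.95 to 7.27 in lower-run and 6.04 to 6.13 in higher-run wildtype arrays. The ureteric bud and the tubule lists were higher in higher-run wildtype arrays without overlap. The early nephron and podocyte list (8 of 10 measured) overlapped there, at 7.04 to 7.40 in lower-run and 7.32 to 7.43 in higher-run arrays. The ureteric bud list averaged 7.61 to 7.73 in lower-run and 7.98 to 8.37 in higher-run arrays, with 2 of 11 genes called higher. The proximal and distal tubule list (10 of 10 measured, with Slc12a3 never above background) averaged 5.13 to 5.56 and 5.92 to 6.14, with a summed intensity of 282 to 408 and 503 to 652. Of its 10 genes 9 were positive and 2 passed, with a median of 0.74. In activated arrays the ureteric bud and the tubule lists overlapped between the runs. The early nephron and podocyte list averaged 7.34 to 7.52 in lower-run and 7.26 to 7.33 in higher-run activated arrays. The stroma list averaged 10.20 to 10.30 in lower-run and 9.93 to 9.98 in higher-run wildtype arrays. Of its 12 genes 3 were called lower, beside 1.64% of all genes. The neuron and glia list averaged 6.03 to 6.42 and 5.75 to 5.98 in wildtype. In activated arrays the stroma and the neuron and glia lists ran the other way. Stroma averaged 9.72 to 9.92 and 10.04 to 10.14, and neuron and glia 5.55 to 5.68 and 5.76 to 5.90. The part of these cells in the differences of Sgk1, Scnn1g and Atp1b1 was not tested.

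RefSeq lists 6 promoter windows for Sgk1, and those with a motif match are shown because Sgk1 is both in the set of genes that differed on beta-catenin activation and a known corticosteroid target. The Tcf/Lef core was found in 2 of the 6, where 5257 of 32851 RefSeq windows of 300 bases hold it. A steroid receptor element, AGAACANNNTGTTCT, which reads the same on both strands, was found in 1 of the 6, and in 3 of the 32851 windows in all. All are on the plus strand of chromosome 10 in GRCm38.p6, in the order chr10:21881934-21882233, chr10:21978422-21978721 and chr10:21993640-21993939. Capitals mark the Tcf/Lef core in the first and second window and the steroid receptor element in the third. A match describes the letters and is not evidence of binding.
Sgk1 window 1: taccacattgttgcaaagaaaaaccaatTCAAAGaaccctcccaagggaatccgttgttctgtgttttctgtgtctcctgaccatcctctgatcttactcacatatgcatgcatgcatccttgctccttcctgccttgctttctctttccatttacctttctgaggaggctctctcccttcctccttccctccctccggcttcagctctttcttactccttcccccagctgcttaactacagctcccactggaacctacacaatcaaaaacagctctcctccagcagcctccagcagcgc
Sgk1 window 2: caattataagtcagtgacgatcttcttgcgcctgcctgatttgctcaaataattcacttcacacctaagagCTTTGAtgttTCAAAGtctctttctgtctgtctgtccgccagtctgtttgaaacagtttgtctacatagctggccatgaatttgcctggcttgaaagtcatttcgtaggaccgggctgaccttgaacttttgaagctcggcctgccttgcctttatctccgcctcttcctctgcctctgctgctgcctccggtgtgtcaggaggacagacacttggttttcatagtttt
Sgk1 window 5: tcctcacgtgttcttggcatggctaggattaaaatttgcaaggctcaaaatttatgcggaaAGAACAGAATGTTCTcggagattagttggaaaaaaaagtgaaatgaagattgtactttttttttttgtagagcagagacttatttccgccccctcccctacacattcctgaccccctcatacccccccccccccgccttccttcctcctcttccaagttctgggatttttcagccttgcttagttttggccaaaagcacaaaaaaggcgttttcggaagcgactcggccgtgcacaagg

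**Figure D2:**
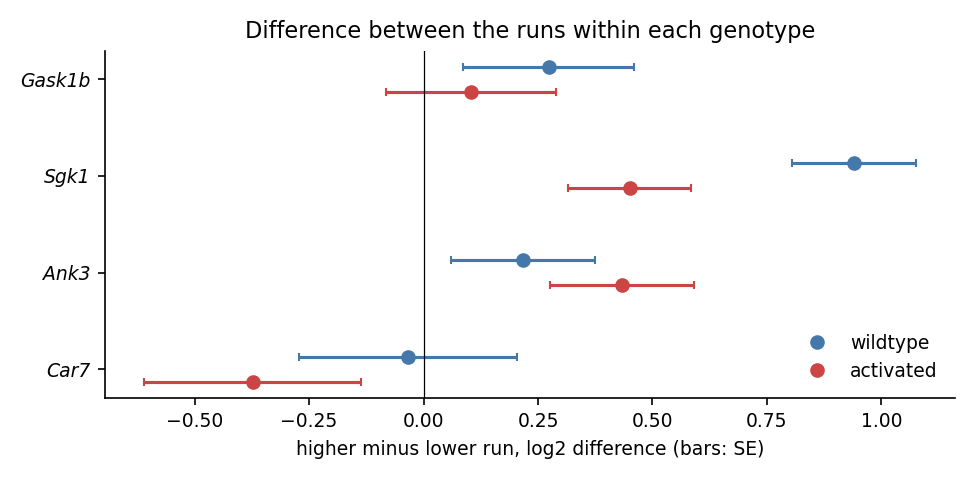
Difference between the higher and the lower run for each member within wildtype (blue) and activated (red) kidneys, in log2 units with SE, from the model of 4 groups of 3 arrays. Sgk1 in wildtype, at 0.94, is the only one of the 8 differences drawn that passed the test over all genes, and those of Car7 rest on signal at or near background.

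In Ank3, the member that was lower in activated kidneys, the brightest probe set (1452124_at) read 10.26, 10.06 and 9.67 in lower-run wildtype arrays and 9.28, 8.97 and 9.36 in lower-run activated arrays. In the higher run it read 10.32, 10.08 and 10.24 in wildtype and 9.81, 9.49 and 9.61 in activated arrays. Within each run the genotypes did not overlap, as in 12.5% of genes in the lower and 11.3% in the higher run. Across runs they did, since the activated 4 array at 9.81 lay above the wildtype 3 array at 9.67. In order of level, activated of the lower run lay below activated of the higher run without overlap. In 20.1% of genes the activated groups of the runs did not overlap. The wildtype groups of both runs overlapped each other. The difference with the run as a term was -0.68 (SE 0.11), with -0.79 (SE 0.16) in the lower and -0.57 (SE 0.16) in the higher run.

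The other probe sets of Ank3 did not follow this in the higher run. Probe set 1451628_a_at read 7.38, 7.32 and 7.15 in wildtype and 6.70, 6.40 and 6.43 in activated arrays of the lower run. In the higher run it read 7.60, 7.37 and 7.42 in wildtype and 7.42, 7.73 and 7.03 in activated arrays, and the genotypes overlapped. Its difference was -0.77 (SE 0.20) and -0.07 (SE 0.20) in the lower and higher run. Probe set 1425202_a_at differed by -0.44 (SE 0.22) and 0.09 (SE 0.22), and its activated arrays overlapped the wildtype arrays in the higher run too. The annotation gives these 2 probe sets the same accession, and a different one to the brightest probe set.

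Tests of the probe sets alone, over all 20380, bear on the runs. The activated kidneys of the higher run read 0.88 above those of the lower run in 1451628_a_at (SE 0.20, limma, adjusted p = 0.0288). The same difference was 0.43 (SE 0.16, adjusted p = 0.202) in 1452124_at and 0.37 (SE 0.22, adjusted p = 0.511) in 1425202_a_at, neither past the test. The effect of activation did not differ between the runs past the test in any of the 3, at 0.22 (SE 0.22), 0.70 (SE 0.29) and 0.53 (SE 0.31), with adjusted p = 1.00, 0.811 and 1.00. The genotypes were apart in both runs in 1 of the 3 probe sets, and a difference between probe sets was not tested. With the mean of all 3 in place of the brightest, the difference with the run as a term was -0.43.

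**Figure D3:**
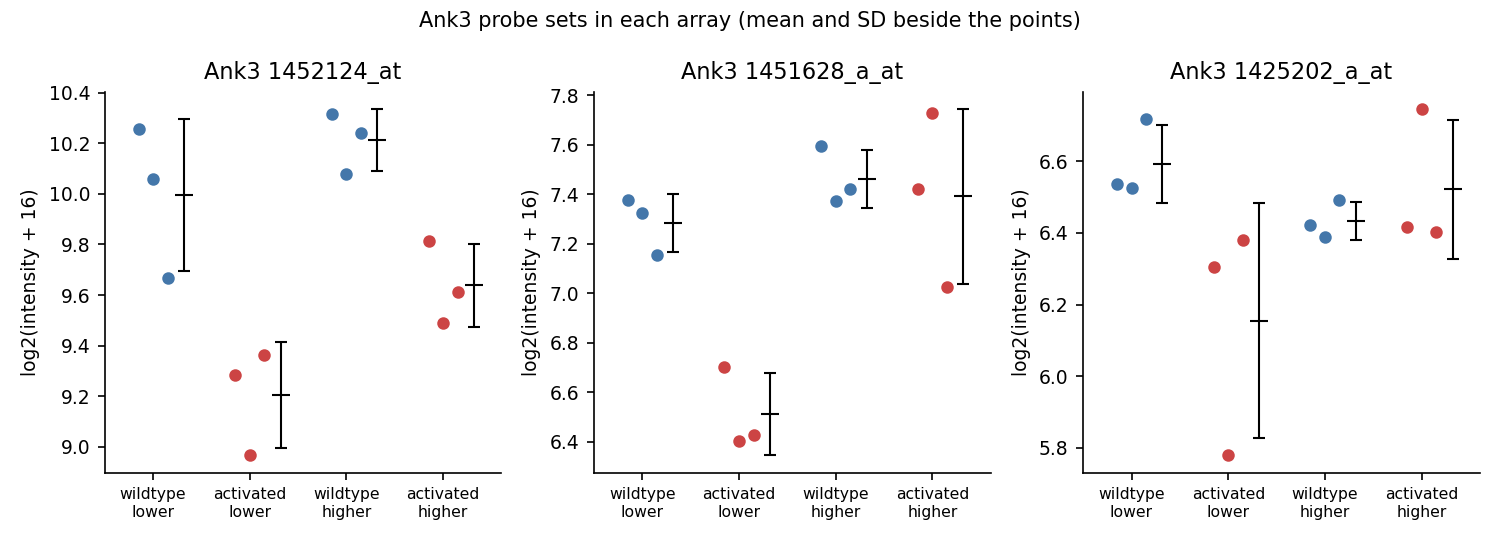
Signal of the 3 Ank3 probe sets in every array, on the log2(intensity + 16) scale, by genotype and run, with 3 arrays a group (blue wildtype, red activated, bars mean and SD). The genotypes are apart in the lower run in all 3 panels, and in the higher run in the panel of 1452124_at alone.

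The partners of ankyrin-G were read as a list. Of 24 measured ankyrins, spectrins and membrane partners, 0 passed on activation, with a median of -0.03 beside -0.01 over all genes. The 3 with the smallest p were Atp1b1 (-0.34, SE 0.10), Dag1, which encodes dystroglycan (-0.24, SE 0.09), and the ankyrin gene Ank1 (-0.51, SE 0.21), and none of them passed. The ureteric bud epithelium list, with 11 of 13 genes measured, had 1 gene called lower, Calb1, and 2 with a positive difference. It averaged 7.91 ± 0.29 in wildtype and 7.73 ± 0.27 in activated kidneys (SD, n = 6 arrays each), and its summed intensity was 5474 to 7809 and 3426 to 6699. The proximal and distal tubule list (10 of 10 measured, 4 of them above the background limit on average) had 0 that passed and 3 positive. Its median was -0.29, and it averaged 5.71 ± 0.38 in wildtype and 5.37 ± 0.29 in activated kidneys. The early nephron and podocyte list had 0 that passed, 6 of 8 positive and a median of 0.05. The part of these lists in the Ank3 difference was not tested.

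Car7 read at or near background. In wildtype arrays it read 4.27, 4.79 and 4.17 in the lower run and 4.52, 4.23 and 4.37 in the higher run, all under the bacterial limit of 5.45. Activated arrays read 5.81, 5.54 and 5.22 in the lower and 5.06, 5.07 and 5.32 in the higher run, so 2 of 6 lay above that limit, both from the lower run. The groups did not overlap, with the lowest activated array at 5.06 and the highest wildtype array at 4.79. The deposited intensities were 2.22 to 14.8 in wildtype and 15.9 to 40.4 in activated kidneys, where bacterial controls reached 29.0. Both group means, 4.39 and 5.34, lay under the limit, so no fold is given.

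The Car7 difference on the log2(intensity + 16) scale was 0.94 (SE 0.17) with the run as a term and 2.18 with a pseudocount of 1. It was 1.11 (SE 0.24) in the lower and 0.77 (SE 0.24) in the higher run. Nothing is concluded from the differences of Car7 between the runs, since all 6 wildtype arrays and 4 of 6 activated arrays lay under the background limit. RefSeq lists 3 promoter windows for Car7, and none held the Tcf/Lef core or the steroid receptor element.

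Of 15 other measured carbonic anhydrase genes 0 passed on activation, and 2 had a positive difference, where 46.6% of all genes did. Their median was -0.19, beside -0.01 over all genes. The 3 with the smallest p were Car1 (-0.50, SE 0.19), Car6 (-0.37, SE 0.15) and Car4 (-0.29, SE 0.18), and none of them passed. Between the runs in wildtype, 1 of the 15 was called higher and 1 lower, where 3.53% and 1.64% of all genes were. The first was Car2, a widespread cytosolic form (1.22), and the second Car3 (-2.08). Both were named after their values were seen. Of 13 bicarbonate and proton transport genes 0 passed on activation, with Slc12a2, a sodium-potassium-chloride cotransporter gene, at -0.54 (SE 0.13, limma, adjusted p = 0.124). By run Slc12a2 fell by 0.94 in the lower run (SE 0.11, adjusted p = 0.000436) and differed by -0.15 in the higher run (SE 0.11), and its effect did not differ between the runs past the test (0.79, adjusted p = 0.0610).

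Genes related to the other members were read in the same way. Among 7 measured secretory pathway kinase genes related to Gask1b, 0 passed on activation and the differences ran from -0.27 to 0.25, with Dipk2a at 0.25 (SE 0.13) and Fam20c, the kinase of secreted phosphoproteins, at -0.23 (SE 0.15). Among 20 genes around Sgk1, Sgk3, a kinase of the same family, differed by 0.59 (SE 0.17, adjusted p = 0.252), with 0.92 in the lower run, which passed there (SE 0.21, adjusted p = 0.0442), and 0.25 in the higher run (SE 0.21), and Mtor, part of the complex that activates the kinase, by -0.35 (SE 0.12). Among the 15 corticosteroid genes the differences on activation ran from -0.64 for Cdkn1c to 0.26 for Dusp1, and 0 passed. Over the 6 lists, 92 genes without the members, limma called 0 on activation, and 15 had an unadjusted p under 0.05, as did 1089 of all 12393 genes. The median was -0.06, and 27 of the 92 were positive, beside a median of -0.01 and 46.6% positive over all genes. In that model 0.105% of all genes passed, 0.0807% as higher and 0.0242% as lower.

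**Figure D4:**
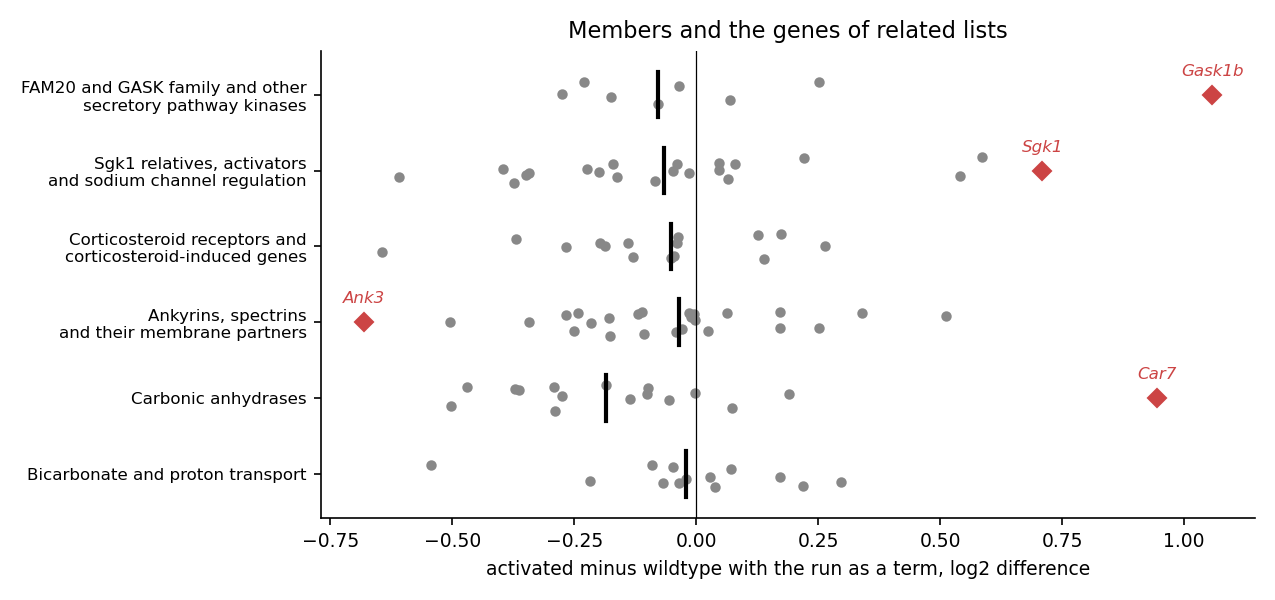
Difference on activation with the run as a term (log2) for each gene of 6 related lists (grey points, black bar the median) and for the members (red diamonds), which were chosen on this difference. List genes lie between -0.64 and 0.59, the members at 1.06, 0.71, -0.68 and 0.94.

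The model that chose these genes passed 13 genes in all. The other 9 were Apcdd1, Dcn, Mab21l1, Wif1, Bgn, Calb1, Nkd2, Dpysl3 and Gas1. At the threshold of 0.05 on the adjusted p, Car7 lay just inside (0.0484) and Masp1 just outside (0.0544). All 4 members had genotypes that did not overlap in either run and moved the same way in both, a pattern that 1.26% of genes showed. For Ank3 this holds for its brightest probe set alone. Gask1b and Car7 also did not overlap over all 12 arrays, as did 0.500% of genes. Since the choice used these arrays, nothing is read from either share.

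The 9 other genes of that model can be set beside the members by run. The model of 4 groups, fitted to both runs at once, called 1.52% of all genes on activation in the lower and 0.0161% in the higher run. Apcdd1, a Wnt inhibitor gene, differed by 2.90 (SE 0.15) in the lower and 1.08 (SE 0.15) in the higher run, and Wif1, another, by 4.20 (SE 0.29) and 1.40 (SE 0.29). An effect that differed between the runs passed the test in 4 of those 9 genes, Apcdd1 (-1.82, limma, adjusted p = 0.00194), Wif1 (-2.79, adjusted p = 0.00800), Nkd2 (-2.42, adjusted p = 0.0306) and Gas1 (0.73, adjusted p = 0.0242). It passed for 0 of the 4 members, and for 0.331% of all genes. Gask1b stood at -0.17 (SE 0.26), Sgk1 at -0.49 (SE 0.19) and Car7, near background, at -0.34 (SE 0.34). Ank3 stood at 0.22 (SE 0.22) in its brightest probe set and at 0.70 and 0.53 in the others. A choice of genes with a small residual spread favours small values here. At an unadjusted p under 0.05 the effect differed between the runs in 1 of the 4 members, Sgk1, and in 757 of all 12393 genes. Whether members and the other 9 genes differ in this was not tested.

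**Figure D5:**
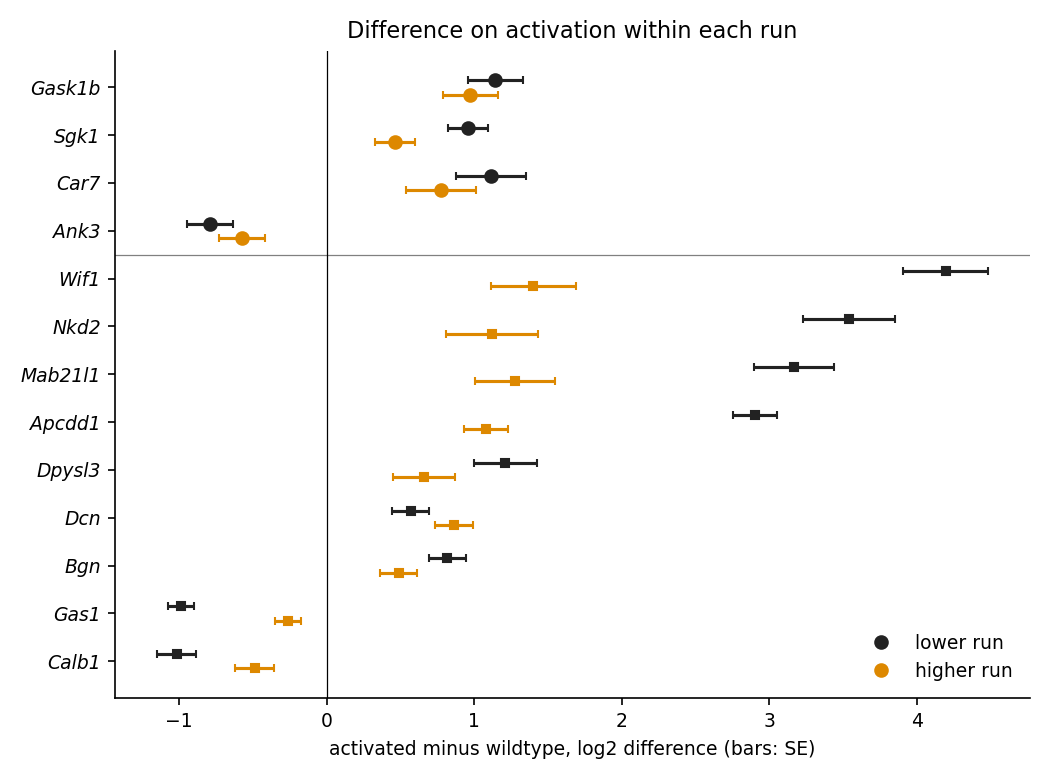
Difference on activation (log2, bars SE) in the lower run (black) and the higher run (orange), for the members above the line and the 9 other genes of the same model below it. Gask1b lies at 1.14 and 0.97, whereas Wif1 lies at 4.20 and 1.40.

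Gask1b and the brightest probe set of Ank3 did not differ past the test between the runs. Gask1b was 0.27 higher in the higher run in wildtype (SE 0.19, limma, adjusted p = 0.506) and 0.10 higher in activated kidneys (SE 0.19, adjusted p = 0.864). In wildtype its 3 arrays of each run did not overlap, as in 25.3% of genes. Ank3 was 0.22 higher in wildtype (SE 0.16, adjusted p = 0.539) and 0.43 higher in activated kidneys (SE 0.16, adjusted p = 0.163). Over both genotypes Ank3 differed by 0.33 (SE 0.11, adjusted p = 0.0760), and without wildtype 1 by 0.40, which passed (adjusted p = 0.0304). Over both genotypes Gask1b differed by 0.19 (SE 0.13, adjusted p = 0.421).

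The values that chose the members held to different degrees under other processing, which is a description of the choice and no test. Gask1b still met the threshold in 23 of 23 alternatives, Sgk1 in 17 of 23, Ank3 in 13 of 23 and Car7 in 3 of 22. Without the run as a term only Gask1b among them met it. Sgk1 no longer met it without wildtype 1, 2 or 4 or activated 1 or 3. Ank3 no longer met it without wildtype 1, 2 or 4 or activated 1, 3 or 5, and Car7 without any single one of the 12 arrays. Without activated 2 the differences were 1.12 for Gask1b, 0.67 for Sgk1, -0.62 for Ank3 and 0.92 for Car7. With the 5' to 3' ratio as a covariate they were 1.13, 0.69, -0.64 and 0.89.

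The genes whose pattern was most like each member were named among 6194 genes at or above the median level, by Pearson's r over the 12 arrays, which share genotype and run, so r is a description only. For Gask1b these were Tcim (r = 0.902), Dpysl3 (r = 0.891) and Utp3 (r = 0.869). For Sgk1 they were Bgn (r = 0.940), which encodes the matrix proteoglycan biglycan, S100a10 (r = 0.914) and Lgals1 (r = 0.913). For Ank3 they were Gltp (r = 0.926), Mbtd1 (r = 0.913) and Dip2b (r = 0.911). For Car7, itself below that level, they were Twist1 (r = 0.893), Gata6 (r = 0.879) and Ppic (r = 0.853), of which the first and second encode transcription factors. Bgn also differed between the runs in wildtype, by 1.17. This is no separate finding, since Bgn was picked for its likeness to Sgk1 over arrays of both runs.

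After genotype and run were taken out of every gene, other genes came first over the same 12 arrays. They were Pdcd7 (r = 0.902), Aamdc (r = 0.902) and Ppp1r11 (r = 0.895) for Gask1b. They were Dkk1 (r = 0.963), which encodes a secreted Wnt inhibitor, Cachd1 (r = 0.907) and Frzb (r = 0.902), a secreted frizzled-related protein gene, for Sgk1. They were Trpm7 (r = 0.898), Msmo1 (r = 0.897) and Mul1 (r = 0.870) for Ank3, and Creg1 (r = 0.858), Id4 (r = 0.830) and Tesc (r = 0.826) for Car7. An effect of activation that differs between the runs was not taken out, and it was -2.38 in Dkk1 (limma, adjusted p = 0.00214), -1.83 in Frzb (adjusted p = 0.0242) and -0.61 in Cachd1 (adjusted p = 0.117), beside -0.49 in Sgk1. Among themselves the members correlated between -0.30 and 0.26 in this form.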

How the data were processed

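RNA of 12 samples was measured on Affymetrix 3' arrays. The deposited values are intensities on a linear scale, 1 per probe set and array. The software behind the authors' summary and scaling was not given in the sources used here. Intensities were taken as log2(intensity + 16) and quantile-normalised, since array quartiles differed by 0.18 to 0.29, over a limit of 0.1. Gene names came from the platform annotation, and 691 probe sets with several symbols, 1555 with none listed and 64 controls were left out. A gene was read by its probe set with the highest mean.

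Differences were fitted with limma 3.58.1 in R 4.3.3 (variance trend, Benjamini-Hochberg over 12393 genes, threshold 0.05), with genotype and run as terms, and on 4 groups of genotype and run. Replicate numbers only name arrays. The fits were tested on simulated data. Promoters came from RefSeq (GRCm38.p6). Plots used matplotlib 3.10.9. Alternatives are given in the closing section. Members and gene lists were chosen with earlier results of these data known. Named genes were the members, the other genes of the same model, up to 3 per list by smallest p, 3 most alike per member, and tissue checks; Pax2 was to be one and was not analysed here. Other genes are marked as chosen after their values were seen or stand as members of a count.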

Additional observations from a re-analysis of the deposited data

How the results depend on the processing

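Of the members' tested values, the Sgk1 difference between the runs in wildtype passed in all alternatives run. The number of arrays and, for Car7, signal near background limit precision.

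Genes called on activation with the run as a term numbered 13, and 3 without that term, 8 with arrays centred on their medians (7 up, 1 down), 8 with the mean of all probe sets (8 up, 0 down), 7 without the variance trend, 78 with the 5' to 3' ratio as a covariate, 4 at a threshold of 0.01 and 4 to 20 when 1 array was left out (4 when that was activated 1 or activated 3, 5 for wildtype 1, 7 for wildtype 2 and 20 for wildtype 6). In the lower run 188 were called, 74 in a separate fit of that run, 304 with the covariate, 93 at 0.01 and 119 to 188 without single arrays. In the higher run 2 were called, 1 in a separate fit, 0 on deposited or centred values, with the mean of probe sets, with every probe set alone, without the trend or at 0.01, 4 with robust variance, 5 with the covariate, and 0 to 2 without single arrays. The test of the difference between runs called 41 (12 up, 29 down), 18 with centred arrays (3 up, 15 down), 24 without the trend, 94 with the covariate, 13 at 0.01, and 16 to 47 without single arrays. Between the runs in wildtype 640 were called (437 up, 203 down), 413 with centred arrays (334 up, 79 down), 1206 with the covariate, 298 at 0.01 and 361 to 917 without single arrays. In activated kidneys 609 were called, 953 with the covariate, 306 at 0.01 and 352 to 645 without single arrays. Over both genotypes 1379 were called, and 687 at 0.01.

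The Ank3 difference on activation was -0.43 with the mean of all probe sets, and the Car7 difference 2.18 with a pseudocount of 1. Differences between the runs that lay near 0 changed sign: Gask1b in activated kidneys, 0.10, was -0.0048 with the covariate and -0.060 to 0.25 without single arrays, and Car7 in wildtype, where all arrays lay under the background limit, -0.03, was 0.025 with a pseudocount of 1, 0.026 with the covariate and -0.15 to 0.16 without single arrays. The cause was not tested for any of these. No paired analysis was possible because the labels give no number shared between the genotypes.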
